A study of Mus musculus with 10 samples.

Results

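Genes of the interferon regulatory factor family, Irf1, Irf2, Irf3, Irf4, Irf5, Irf7, Irf8 and Irf9, were followed in primary mouse microglia, the resident macrophages of the brain. The 8 genes were chosen by name after gene identifiers had been matched to GENCODE M21, out of 55471 genes in the tables. All 8 passed the filter on low counts, which kept 19263 genes. The cells were wild type and were grown in DMEM with serum. They had received a gapmer, a short antisense oligonucleotide that directs RNase H to the RNA it binds. In 5 libraries it was a control gapmer, and in 5 it was aimed at 3222401L13Rik, a long noncoding RNA. Whether replicates were separate cultures or animals is not in the labels, so the p-values measure only the spread between these libraries, which may be technical.

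IRF proteins share an N-terminal DNA-binding domain that reads GAAA-rich sites. Irf3, Irf5 and Irf7 are switched on by phosphorylation downstream of nucleic acid and Toll-like receptor sensors and drive interferon genes. Irf9 joins STAT proteins in the complex that carries the interferon receptor signal to interferon-stimulated response elements (ISRE), Irf1 is an activator induced by interferon-gamma, and Irf2 often represses the same sites. Irf8 and Irf4 bind composite sites together with the myeloid factor PU.1 (the product of Spi1), and Irf8 is needed for microglia to form and to keep their identity.

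Total RNA was counted as reads per gene, with 4.32 to 6.64 x 1000000 reads per library. The targeted 3222401L13Rik had 30.8 ± 2.59 reads in the control libraries and 29.2 ± 6.53 in those with the targeting gapmer (SD, n = 5 each). Its log2 difference was -0.17 (adjusted p = 0.541 by edgeR's quasi-likelihood test, 95% interval -0.63 to 0.29), so the second group is called labelled knockdown throughout. Of 12 microglial markers, 11 reached a mean of 5 CPM over the libraries (counts per 1000000, after TMM scaling), led by Csf1r. Markers of other cells reached it too: 6 of 10 of border macrophages and monocytes (led by Mrc1), 8 of 10 of astrocytes (Gfap), 5 of 8 of endothelium (Flt1), 5 of 10 each of the oligodendrocyte lineage (Cnp) and neurons (Map2), 4 of 10 of dendritic cells (Itgax), 3 of 8 of fibroblasts and mural cells (Col1a1), 2 of 8 of epithelium (Trp63), 1 of 10 of lymphocytes and plasma cells (Prdm1) and 0 of 8 of neutrophils. In the control libraries Mrc1 had 596 ± 51.6 CPM and Csf1r 586 ± 23.2 (SD, n = 5, not scaled by length). Reads on 1135 olfactory receptor genes, which microglia are not known to transcribe, served as a measure of background. Their density, per kilobase of exon and 1000000 reads, was 0.599 ± 0.147 in the control libraries and 0.257 ± 0.0674 in those labelled knockdown (SD, n = 5 each), with p = 0.00794 by an exact two-sided permutation test. The 2 ranges did not overlap, and the control density was 2.33 times the other. Density times exon length gave the reads of each gene that could be background, called its background share. Over a whole marker list it was 55.61% for neurons, 52.01% for fibroblasts and mural cells, 49.99% for epithelium and 27.64% for lymphocytes and plasma cells. It was 14.29% for the oligodendrocyte lineage, 13.84% for astrocytes, 12.04% for endothelium and 5.45% for dendritic cells. Border macrophages and monocytes had 2.52%, and microglia 0.4266%. On the lists with the highest shares, reaching 5 CPM does not show that such cells were present. For 3222401L13Rik this share was 61.35% of reads in the control libraries and 33.85% in those labelled knockdown. Much of its count could thus be background, which differed between the groups. Taking that background off would leave fewer reads in the control libraries than in those labelled knockdown. With so few reads beyond the background, the counts do not decide whether the target was lowered.

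Sites of 3 kinds, used by interferon signalling or by PU.1 and its partners, were looked for in windows from 250 bases before to 50 bases after annotated starts (RefSeq, GRCm38.p6), which covered the 8 genes with 11 windows. The letters searched on both strands were TTCNNNGAA for the STAT-bound gamma-activated sequence (GAS), GAAANNGAAA for the ISRE core and GGAANNGAAA for the composite of an ETS factor such as PU.1 with an IRF. These sites are shown because the family is in part controlled by the pathway it serves. The capitals mark the match, and all lie on the plus strand, which is the gene strand.
Irf1 GAS, chr11:53769914-53769943: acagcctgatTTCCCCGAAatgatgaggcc
Irf8 upstream GAS, chr8:120736177-120736206: caaaagtgatTTCTCGGAAagagagcgctt
Irf8 downstream GAS, chr8:120736195-120736224: aagagagcgcTTCAGAGAAggcggatttgg
Irf2 GAS, chr8:46739511-46739540: aaattgacttTTCCGAGAAatgatgaaagc
Irf2 ISRE core, chr8:46739495-46739524: tggggaagtGAAAATGAAAttgacttttcc
Irf2 composite, chr8:46739495-46739524: tggGGAAGTGAAAatgaaattgacttttcc

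The GAS letters stood in windows of 3 IRF genes, Irf1, Irf2 and Irf8, and in 8.3% of all 32851 windows of that length. In Irf1 the match began 90 bases before the start, and in Irf8 the pair of matches began 171 and 153 bases before it. The ISRE core was found only in the Irf2 window among the 8 genes, against 3.44% of all windows, and the Irf2 composite overlaps that ISRE core, against 2.72% of all windows. These are matches of letters in a window and do not show binding. No window of Irf3, Irf4, Irf5, Irf7 or Irf9 held any of the 3 letter patterns.

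Irf5, Irf8 and Irf7 were the most abundant members. Levels between genes are compared as reads per kilobase of exon per 1000000 reads, over the union of a gene's annotated exons. In the control libraries Irf5 stood at 67.0 ± 1.54, Irf8 at 44.7 ± 1.24 and Irf7 at 31.5 ± 2.12 on this scale (SD, n = 5). These levels placed Irf5 at percentile 97.65, Irf8 at 96.11 and Irf7 at 94.12 of the 19263 tested genes. Irf9, at 16.0 ± 1.35, and Irf2, at 14.7 ± 0.941, came next, and their control ranges overlapped, with Irf9 above Irf2 in 4 of 5 libraries. Irf1 followed at 12.6 ± 0.613 and Irf3 at 7.83 ± 0.781. Irf4 was far lower, at 1.48 ± 0.210. Every other pair of neighbours in this order kept its order in 5 of 5 control libraries. The top of the order depends on the length used. Divided by the longest annotated transcript, Irf8 had 90.9 and Irf5 86.9 reads per kilobase per 1000000 reads, with Irf8 above Irf5 in 4 of 5 control libraries but in only 2 of 5 labelled knockdown.

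**Figure D1:**
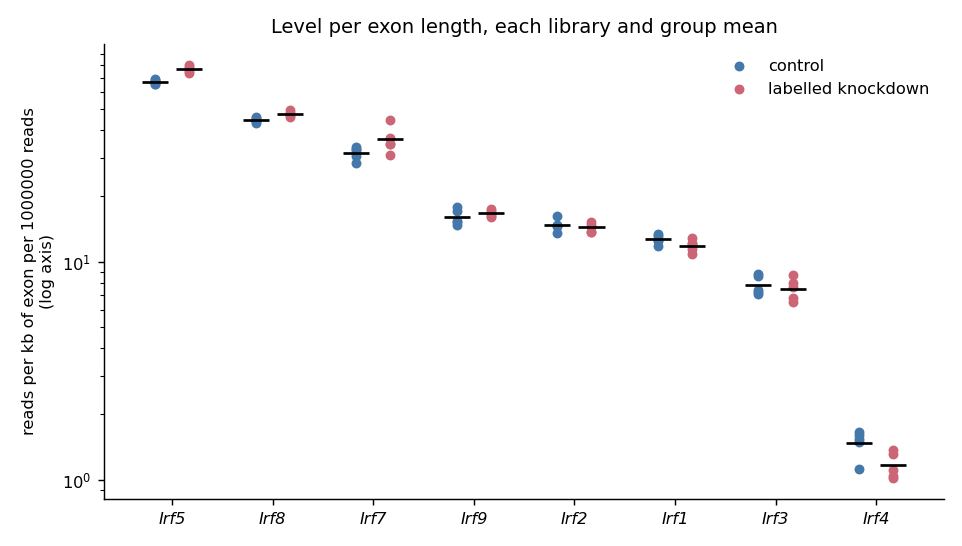
Level of each IRF gene in reads per kilobase of exon per 1000000 reads (log axis), one point per library (blue for control, red for labelled knockdown) with a line at the group mean, in the order of the control means. Irf5, Irf8 and Irf7 sit above 28 in every library, and Irf4 stays below 1.8.

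The low end of this order lay close to the background. The background share was 31.1% of Irf4 reads, 5.27% for Irf3, and between 0.56% (Irf5) and 3.31% (Irf1) for the 6 others. With the density taken off, Irf4 remained the lowest of the 8 genes, while Irf5 kept 66.4 ± 1.49 reads per kilobase per 1000000 reads in the control libraries (SD, n = 5).

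Between the groups, 5 of the 8 IRF genes were higher in the libraries labelled knockdown (Irf2, Irf5, Irf7, Irf8 and Irf9), 0 were lower, and Irf1, Irf3 and Irf4 did not pass the test (edgeR's quasi-likelihood test with TMM scaling, adjusted p under 0.05 over all genes). DESeq2 and limma-voom gave the same counts of 5 and 0, and 0 were lower at an unadjusted p under 0.05. Over all tested genes, 22.9% were called higher and 31.3% lower in the same fit. The 6 IRF genes with a background share under 5% (Irf1, Irf2, Irf5, Irf7, Irf8 and Irf9) belonged to a class of 4728 genes, of which 75.5% were called higher and 0.486% lower, and 5 of the 6 IRF genes were called higher. On the CPM scale the groups did not overlap for 2 of the 8 IRF genes, Irf5 and Irf8, both higher. They did not overlap for 12.6% of all tested genes in the higher and 14.2% in the lower direction, and for 44.5% and 0.36% of the 4728 low-background genes. The median log2 difference was 0.20 over the 8 IRF genes, 0.24 over the 4728 genes of that class and -0.10 over all tested genes. When the scaling was set on the 4728 low-background genes alone, the IRF calls came down to Irf5 higher, and 1.62% of all genes were called higher and 44.6% lower. On that scaling 299 of the 4728 genes were called higher and 258 lower. Of the 853 genes with a share under 1%, which include Irf5 and Irf8, 166 were called higher and 13 lower. The median over all genes then moved from -0.10 to -0.34, and over the 8 IRF genes from 0.20 to -0.05. With background reads subtracted, 6 IRF genes could be tested and 0 were called (1, Irf5, at an unadjusted p under 0.05), beside 0.719% higher and 1.02% lower among the 4728 genes.

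**Figure D2:**
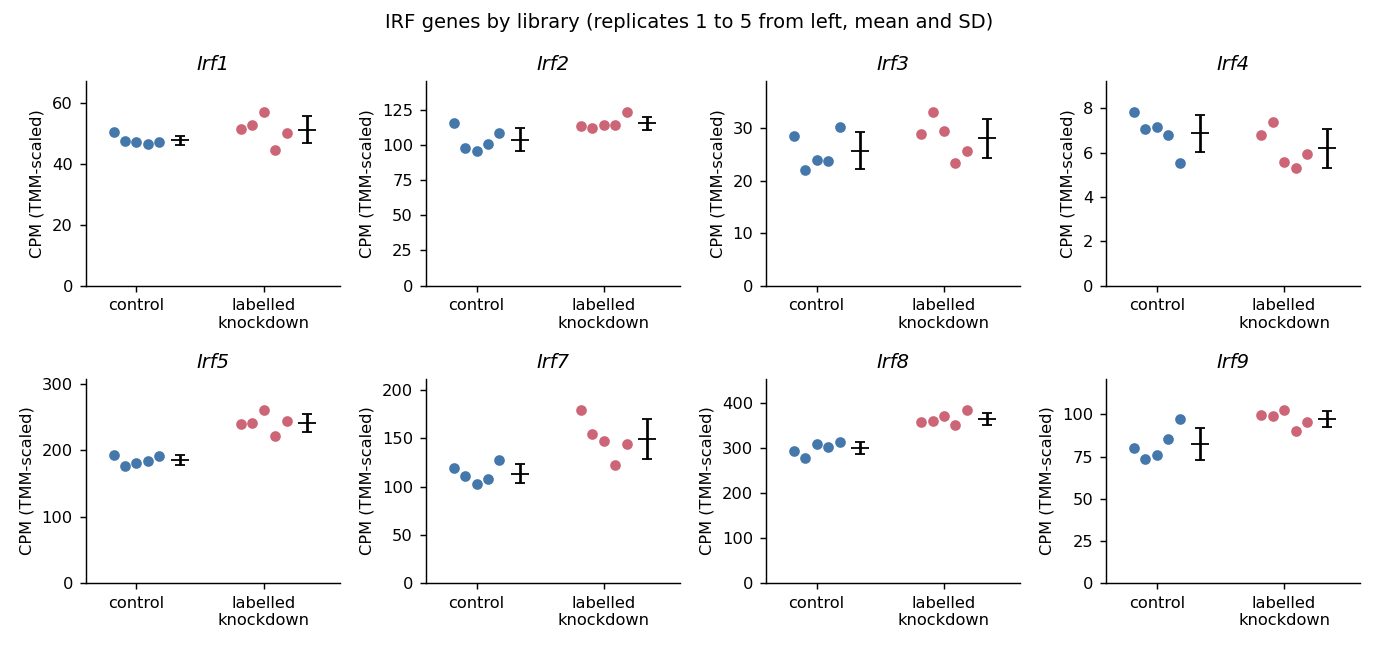
TMM-scaled CPM of each IRF gene in the 5 control and the 5 labelled knockdown libraries, one point per library, with black bars for the group mean and SD. The groups do not overlap for Irf5 and Irf8 (higher when labelled knockdown), and they overlap for the 6 other genes, where 12.6% of all tested genes have no overlap in the higher direction.

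Irf5, which drives inflammatory cytokine genes downstream of Toll-like receptors, showed the clearest difference. Its CPM in control replicates 1 to 5 was 193.2, 176.2, 181.8, 184.1 and 191.6. In the libraries labelled knockdown it was 239.7, 240.7, 260.9, 222.4 and 243.6. All 5 labelled knockdown libraries lay above the highest control library. The log2 difference was 0.38 (SE 0.059, 95% interval 0.26 to 0.50, edgeR adjusted p = 1.08e-06), a 1.30-fold rise. On the low-background scaling Irf5 rose by 0.13 (95% interval 0.06 to 0.21, edgeR adjusted p = 0.00335), and scaled by library totals it rose by 0.17 (edgeR adjusted p = 0.000407). After subtraction the value was 0.11 with an edgeR adjusted p of 0.106. With library totals as the only scaling, its level was 65.3 to 68.7 reads per kilobase per 1000000 reads in the control libraries. It was 73.4 to 80.2 in the others, again with no overlap. Those totals include the background reads.

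Irf8, the lineage factor of microglia, had the most reads of the family. The control libraries had 295.0, 279.5, 309.5, 303.6 and 313.6 CPM, and the labelled knockdown libraries 357.9, 361.3, 371.5, 351.9 and 385.5. The groups did not overlap on this scale. Irf8 rose by 0.28 log2 units (SE 0.057, 95% interval 0.17 to 0.40, edgeR adjusted p = 5.8e-05). On the low-background scaling its difference was 0.04 (95% interval -0.03 to 0.11, edgeR adjusted p = 0.382), and the call was also lost with library totals (0.08, adjusted p = 0.0641). Spi1, which encodes its partner PU.1, had 205.8 ± 13.1 CPM in the control libraries and 240.0 ± 15.8 in the others (SD, n = 5 each). Its log2 difference was 0.22 (edgeR adjusted p = 0.0016) and became -0.03 on the low-background scaling (adjusted p = 0.636). A ratio within a library needs no scaling, and there were 1.46 ± 0.0691 Irf8 reads per Spi1 read in the control libraries and 1.53 ± 0.0600 in the others (SD, n = 5 each), with overlapping ranges. Summed CPM of the 12 microglial markers was 3024 to 3640 in the control libraries and 3700 to 4292 in those labelled knockdown, and of 10 border macrophage and monocyte markers, 657 to 772 and 802 to 920. On this scaling 75.5% of the 4728 low-background genes were called higher, with a median of 0.24, and the groups did not overlap for 44.5%. Tmem119 (-0.05, edgeR adjusted p = 0.907) and Sall1 (0.10, adjusted p = 0.334) were not called, and the other microglial markers were called higher. The border macrophage and monocyte list went both ways. Mrc1, which makes up most of its sum, rose by 0.31 log2 units (edgeR adjusted p = 3.06e-05), with Pf4 and Itga4, while Cd163 fell by 0.85 (adjusted p = 0.00313), F13a1 by 0.96 (adjusted p = 0.000784) and Ccr2 by 0.70 (adjusted p = 0.0151). The background share was 40.55% for Cd163, 47.3% for F13a1 and 52.6% for Ccr2, against 0.39% for Mrc1. Of the 9014 tested genes with a share of 20% or more, 5644 were called lower, with a median log2 difference of -0.81. No marker of either list was at 0 in all libraries. Their part in the Irf8 and Irf5 values was not tested, and in bulk RNA fewer cells of a type and less RNA per cell cannot be told apart.

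Irf4, the other PU.1 partner of the family, had 30 to 43 reads per library. Its CPM was 7.83, 7.07, 7.18, 6.82 and 5.54 in the control libraries and 6.81, 7.41, 5.57, 5.31 and 5.96 in the others, with 1 of 5 labelled knockdown libraries above the control mean. The log2 difference of -0.15 did not pass the test (95% interval -0.56 to 0.26, edgeR adjusted p = 0.557). The background share of Irf4 reads was 40.0% in the control libraries and 21.8% in the others. With the density taken off, its level was 0.880 ± 0.166 and 0.910 ± 0.169 reads per kilobase per 1000000 reads (SD, n = 5 each). Among the 9014 tested genes with a background share of 20% or more, to which Irf4 belongs, 5644 were called lower and 11 higher, with a median log2 difference of -0.81. Markers of 10 lymphocyte and plasma cell genes, among the cells that use Irf4 most, summed to 42.8 to 52.0 CPM in the control libraries and 39.2 to 47.1 in the others, with 1 of 10 (Prdm1) at 5 CPM or more and none at 0 in all libraries.

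Irf7, the interferon-induced amplifier of the type I interferon response, was the most variable of the 3 most abundant members. Control replicates 1 to 5 had 119.1, 111.0, 102.1, 107.8 and 127.2 CPM, and the labelled knockdown libraries had 179.0, 154.7, 146.5, 122.3 and 143.8. Labelled knockdown replicate 1 was the highest library and replicate 4 lay inside the control range. Irf7 rose by 0.39 log2 units (SE 0.071, 95% interval 0.25 to 0.54, edgeR adjusted p = 2.7e-05). Its difference was 0.15 on the low-background scaling (95% interval -0.05 to 0.35, edgeR adjusted p = 0.203). The coefficient of variation of its CPM was 8.65% in the control group and 13.7% in the labelled knockdown group, against 4.51% and 3.61% for Irf8.

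Irf9, the DNA-binding subunit of the interferon-stimulated complex, had 80.1, 73.6, 76, 85.3 and 97.1 CPM in the control libraries and 99.8, 99.1, 102.6, 89.9 and 95.6 in those labelled knockdown. Control replicate 5 lay above labelled knockdown replicates 4 and 5, so the groups overlapped. Irf9 rose by 0.24 log2 units with TMM over all genes (SE 0.067, edgeR adjusted p = 0.00236), but its sign turned to -0.01 on the low-background scaling (adjusted p = 0.933).

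Irf2, the repressor of the family, had 115.6, 97.5, 95.9, 100.6 and 108.4 CPM in the control libraries and 113.2, 111.8, 113.9, 114.1 and 123.2 in the others. Control replicate 1 lay above 4 of the 5 labelled knockdown libraries. Irf2 rose by 0.15 log2 units with TMM over all genes (SE 0.063, edgeR adjusted p = 0.0345) and turned to -0.09 on the low-background scaling (adjusted p = 0.118). The Irf2 call was lost without control replicate 2, 3 or 4 (adjusted p = 0.0547, 0.0931 and 0.0677) and without labelled knockdown replicate 5 (adjusted p = 0.0664).

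Irf1 had 46.6 to 50.4 CPM in the control libraries, with a median of 47.3, and 44.8 to 57.0 in the others, and 4 of 5 labelled knockdown libraries stood above the control mean. Its log2 difference was 0.10 (95% interval -0.05 to 0.25, edgeR adjusted p = 0.255), and -0.15 on the low-background scaling (adjusted p = 0.0729). Irf3, the constitutive sensor-activated factor, had 22.0 to 30.4 CPM in the control libraries and 23.4 to 33.1 in the others. Irf3 differed by 0.12 log2 units (SE 0.099, edgeR adjusted p = 0.285), and by -0.12 on the low-background scaling (adjusted p = 0.316). For neither Irf1 nor Irf3 did any scaling over the 10 libraries give a call, and the sign depended on it.

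**Figure D3:**
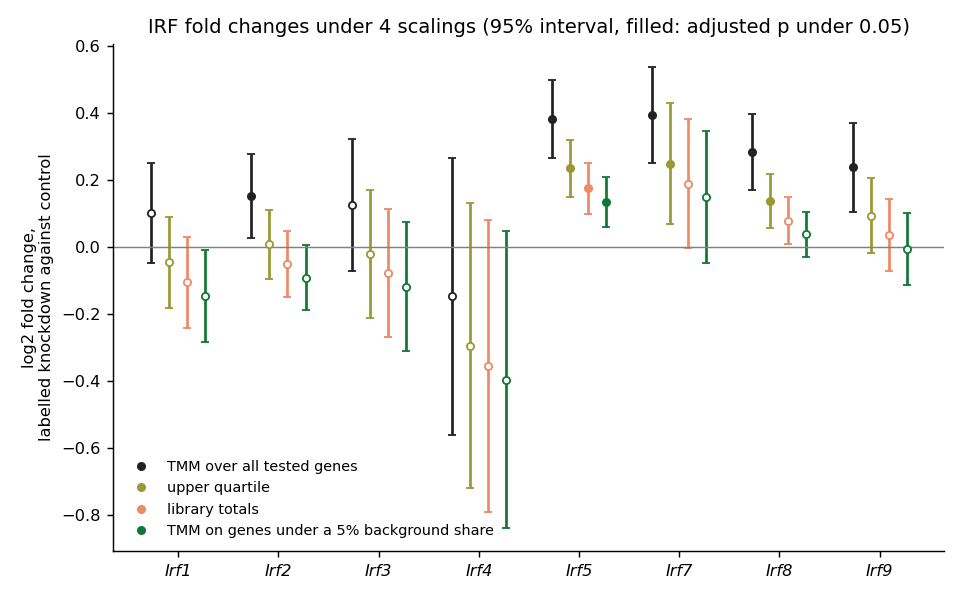
Log2 difference of each IRF gene, labelled knockdown against control, with its 95% interval under 4 scalings (TMM over all genes, upper quartile, library totals, TMM on low-background genes; filled symbols had an adjusted p under 0.05). Irf5 goes from 0.38 with TMM over all genes to 0.13 with TMM on low-background genes, while Irf9 goes from 0.24 to -0.01.

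**Figure D4:**
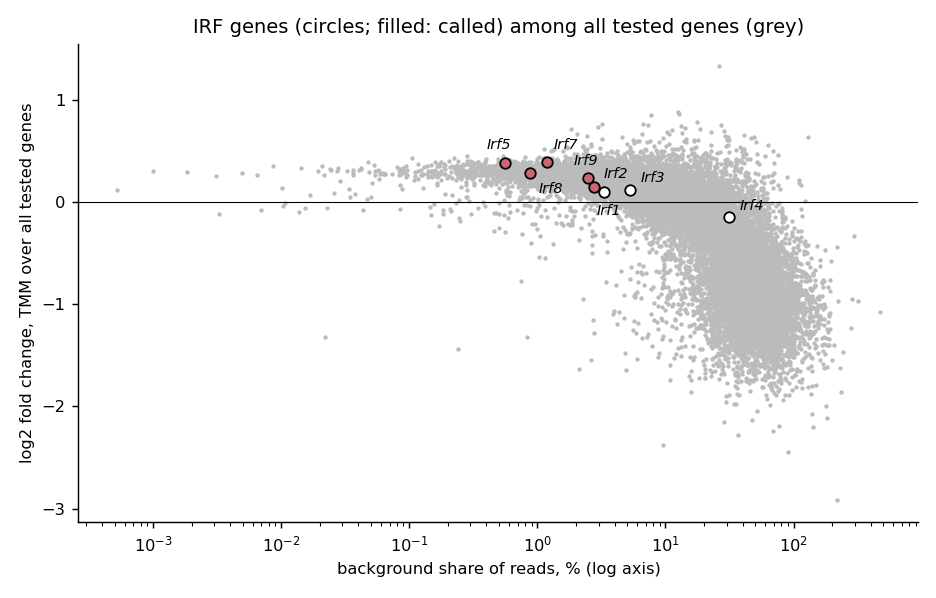
Log2 difference of 19248 tested genes (grey) against their background share in percent (log axis), with the 8 IRF genes as circles (filled where called) and 15 genes with no share above 0 not drawn. The 6 IRF genes under a 5% share lie at 0.10 to 0.39, and Irf4, at a share of 31.1%, lies at -0.15.

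Taken as shares of the family's own summed per-length level, a quantity that needs no scaling between libraries, 4 of 8 members differed at an unadjusted exact p under 0.05 (exact two-sided permutation tests, 8 shares compared, shares that must sum to the whole). Irf5 made up 34.5, 34.4, 34.6, 34.4 and 33.2% of the pool in the control libraries and 34.8, 35.6, 37.5, 36.4 and 36.1% in those labelled knockdown. The groups did not overlap, and the share was higher by 1.86 percentage points (exact p = 0.00794, the smallest that 5 against 5 libraries can give). Irf1 went from 6.45 ± 0.310% to 5.59 ± 0.259% (SD, n = 5 each, exact p = 0.0159), Irf4 from 0.755 ± 0.108% to 0.549 ± 0.0683% (exact p = 0.0238) and Irf2 from 7.50 ± 0.355% to 6.78 ± 0.444% (exact p = 0.0238), each with overlapping ranges. Irf7 held 16.1 ± 0.839% and 17.1 ± 1.79% (exact p = 0.309), and Irf8 held 22.8 ± 0.994% and 22.5 ± 1.05% (exact p = 0.619). The shares need no scaling but still hold background reads. After subtraction of background the Irf5 difference was 1.54 points (exact p = 0.0238, no longer the smallest possible). The share of Irf1 also still passed (exact p = 0.0159), and those of Irf2 and Irf4 did not (exact p = 0.0556 and 0.587).

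The other genes of the pathway were taken by role. Of 21 interferon ligand genes only Ifnz and Ifnk could be tested. Ifnb1, the first type I interferon that Irf3 and Irf7 induce, had 32 reads over all 10 libraries, Ifng had 67 and Ifna6 had 0. Ifnz fell by 1.10 log2 units (edgeR adjusted p = 0.00222) and Ifnk by 1.00 (adjusted p = 0.0448), at background shares of 19.2% and 20.5%.

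Of 6 interferon receptor genes 5 rose and 1 fell with TMM over all genes, and 0 rose and 1 fell on the low-background scaling. The 5 that rose were the 5 with a background share under 5%, a class of which 75.5% rose, beside 22.9% of all tested genes. Ifnar1 and Ifnar2, the type I receptor chains, had log2 differences of 0.27 and 0.28, Ifngr1 of the type II receptor 0.29, and Il10rb, shared with the type III receptor, 0.30 (edgeR adjusted p = 0.000307, 0.000742, 0.000107 and 4.27e-05). Ifnlr1, the specific chain of the type III receptor, fell by 0.85 (adjusted p = 0.00431) at a background share of 36.6%. In the JAK-STAT relay 8 of 11 rose and 1 fell, and on the low-background scaling 0 rose and 1 fell. Of its 9 genes under a 5% share 8 rose. Jak1, the kinase of both interferon receptors, rose by 0.30, and the phosphatase genes Ptpn11 and Ptpn6 by 0.34 and 0.31. Stat2, a partner of Irf9, rose by 0.19 (adjusted p = 0.0145), with a value of -0.05 on the low-background scaling. Socs1, the feedback inhibitor of JAK kinases, fell by 1.07 (adjusted p = 0.00081) at a background share of 29.7%.

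Among 17 sensors and adaptors that act upstream of the IRFs, 9 rose and 0 fell, and 9 of the 14 under a 5% share rose, beside 75.5% of that class. Tlr7, the receptor of single-stranded RNA, rose by 0.34, and by 0.09 on the low-background scaling (edgeR adjusted p = 0.0285). Unc93b1, which carries Tlr7 to endosomes, had a log2 difference of 0.27, Ifih1, the RNA sensor MDA5, 0.28, and Tlr4 0.28, and none of these 3 passed on the low-background scaling (adjusted p = 0.601, 0.673 and 0.635). Ticam1, the adaptor TRIF, fell by 0.26 on that scaling (adjusted p = 0.00873), at a background share of 3.67%. Of 16 kinases and ubiquitin ligases 11 rose and 0 fell, with 10 of the 12 under a 5% share among the rises. They included Tbk1 and Ikbke, the kinases of Irf3 and Irf7, by 0.31 and 0.30, their scaffold Tank by 0.35 and the Irf5 regulator Lyn by 0.32. On the low-background scaling 0 of the 16 rose and 2 fell, Ikbkb (-0.24, adjusted p = 0.000131) and Tbkbp1 (-0.18, adjusted p = 0.0443). Their background shares were 6.81% and 3.83%. On this scaling 44.6% of all tested genes fell, and 258 of the 4728 genes under a 5% share.

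Of 16 DNA-binding partners and corepressors of IRFs 12 rose and 1 fell, and all 11 under a 5% share rose. The myeloid factor Cebpa rose by 0.34, the corepressor Irf2bpl by 0.34, Jun by 0.32 and Rela by 0.31, and on the low-background scaling 0 rose and 1 fell. Spib, a relative of PU.1, was the gene that fell (-1.22, edgeR adjusted p = 0.00361), at 3.05 ± 0.741 and 1.30 ± 0.608 CPM and a background share of 55.1%. Of 40 classical interferon-induced genes 24 rose and 1 fell. Among the 30 under a 5% share 22 rose, beside 75.5% of that class and 22.9% of all tested genes. Irgm1, an immunity-related GTPase, rose by 0.36, Bst2 (tetherin) by 0.36, Oasl2 by 0.32 and B2m, the light chain of class I MHC, by 0.31. On the low-background scaling only Irgm1 rose (0.12, adjusted p = 0.0373), and Ciita (-1.09, adjusted p = 0.000372) and Oasl1 (-0.42, adjusted p = 0.0477) fell. The background shares of Ciita and Oasl1 were 54.5% and 10.5%. On this scaling 44.6% of all tested genes fell. Of the 9014 genes at a share of 20% or more 6884 fell, with a median of -1.06, and of the 5506 at 5 to 20% 1436 fell. The list medians of the log2 difference were 0.27 for receptors, 0.21 for the relay, 0.22 for sensors, 0.24 for kinases, 0.27 for partners and 0.28 for interferon-induced genes, beside 0.24 over the 4728 genes under a 5% background share.

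Irf7 and the interferon-induced genes were compared library by library. For the 30 of the 40 interferon-induced genes with a background share under 5%, the mean log2 CPM relative to the 10-library mean was -0.15, -0.06, -0.26, -0.25 and -0.03 in control replicates 1 to 5. It was 0.38, 0.12, 0.21, -0.06 and 0.09 in labelled knockdown replicates 1 to 5. This CPM was scaled by TMM over all genes, where the 4728 genes under a 5% share had a median log2 difference of 0.24. The median over the 40 interferon-induced genes was 0.28 on that scaling and 0.03 on the low-background scaling. Labelled knockdown replicate 1 was highest for the 30 genes, as it was for Irf7, and labelled knockdown replicate 4 was lowest of its group for both. The low of replicate 4 was not particular to them. It was also lowest of its group in CPM for Irf1, Irf3, Irf4, Irf5, Irf8, Irf9 and Spi1, though not for Irf2. Its background density, 0.343, was the highest of its group. Rsad2 (viperin), one of the 40 and chosen here after its values were seen, had 119.4 to 167.9 CPM in the control libraries, 277.3 in labelled knockdown replicate 1 and 136.8 to 195.5 in the 4 others. Without labelled knockdown replicate 1 the log2 difference of Irf7 was 0.35, still past the test.

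**Figure D5:**
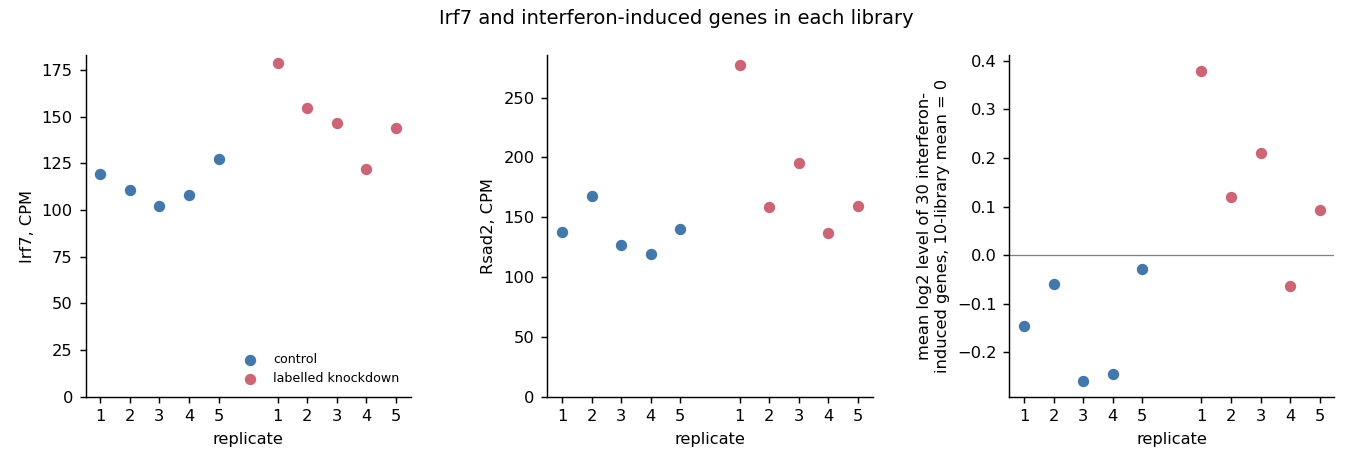
In each of the 10 libraries, by replicate (points, blue for control and red for labelled knockdown): Irf7 in CPM, Rsad2 in CPM, and the mean log2 CPM of 30 interferon-induced genes relative to the 10-library mean. Labelled knockdown replicate 1 is highest, with Irf7 at 179.0 CPM and the 30 genes at 0.38, and labelled knockdown replicate 4 is lowest of its group, at 122.3 CPM and -0.06. Labelled knockdown replicate 4 is also lowest of its group for Irf5 and Irf8. CPM is scaled by TMM over all genes, where genes under a 5% background share had a median log2 difference of 0.24.

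Over the 10 libraries, the genes whose centred log2 CPM profile lay closest to a member were found by the root mean square difference among 19262 genes. Closest to Irf7 were Slfn5 (0.061 log2 units) and Parp14 (0.065), where the median gene was 0.379 away. Slfn5 had 312.3, 293.4, 280.1, 283.5 and 329.3 CPM in the control libraries and 437.9, 389.4, 414.9, 339.5 and 371.5 in the others. Gatm and Tfg were closest to Irf5 (0.029 and 0.034), Smim15 to Irf8 (0.031), and Lap3 and Zyg11b to Irf9 (0.044 and 0.046). For Irf2 they were Ptgr2 and Cnot1 (0.030 and 0.037), for Irf1 Mkln1 and Hmg20b (0.038 and 0.043), and for Irf3 Herc4 and Zfp768 (0.061 and 0.065). All points share the libraries and their background densities, so these distances are descriptions.

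Replicates 1 to 3 of both groups came from lane 7 and replicates 4 and 5 from lane 8, and the IRF differences were recomputed within lanes. Within lane 7 the log2 differences were 0.55 for Irf7, 0.41 for Irf9, 0.31 for Irf3 (adjusted p = 0.0331), 0.45 for Irf5 and 0.32 for Irf8. Within lane 8 they were 0.20 for Irf7, 0.04 for Irf9, -0.12 for Irf3, 0.33 for Irf5 and 0.28 for Irf8, and none of the 8 genes passed there with 2 libraries a group. A group-by-lane term had a raw p of 0.0119 for Irf7, 0.00747 for Irf9 and 0.0326 for Irf3, and an edgeR adjusted p of 0.965 for each of the 3.

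The 8 genes lie at separate places of GRCm38 except that Irf2 and Irf8 share chromosome 8 and Irf3 and Irf7 chromosome 7. Irf5 (chromosome 6, 29526625 to 29541871, plus strand) shares 411 exon bases with Tnpo3 on the other strand, which is 14.1% of its exons. Irf7 (chromosome 7, 141262706 to 141266481, minus strand) shares 45 exon bases with Phrf1, Irf1 (chromosome 11, 53770014 to 53778374, plus strand) 135 with Gm17334, and Irf3 88 with Bcl2l12, each on the opposite strand. Irf9 shares 123 exon bases with Rnf31 on its own strand. Irf8 (chromosome 8, 120736358 to 120756694, plus strand), Irf2 and Irf4 share 0. No source used here gives the strand setting of the counting, and the reads on such a shared stretch could belong to either gene. Irf5 has the longest one.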

How the data were processed

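Total RNA libraries were made with a strand-marking, random-primed kit, per the labels' protocols. The values deposited by the authors are raw read counts, with 1 file for each library. The submitters' processing notes name bcl2fastq and the build GRCm38 (mm10). For the aligner, the counter with its strand setting and the annotation, the entry is: not given in the sources used here. Entries of 92 spike-ins were left out, and 55230 of 55471 genes matched GENCODE M21, with 0.0107% of reads on the rest. No pair of libraries of 1 group agreed within counting noise (chi-square of 1.76 to 4.47 per degree of freedom).

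Genes kept by filterByExpr were scaled by TMM, and groups were compared by the quasi-likelihood test of edgeR (edgeR 4.0.16, R 4.3.3, robust), with Benjamini-Hochberg adjustment over all genes. The alternatives were DESeq2 1.42.0, limma-voom (limma 3.58.1), other scalings and filters, background subtraction or covariate, lanes, a replicate block, 1 surrogate variable (sva 3.50.0) and each library left out. Fits were tested on simulated data. Family shares were compared by exact permutation (scipy 1.17.1) without adjustment, although an adjustment over the members had been planned. Likeness used log2(CPM + 0.5). The members, lists and tests were chosen with earlier results of these data known. The text names the 8 members, 3222401L13Rik, Spi1, up to 4 genes per pathway list with the smallest p, 2 genes closest to each member with a mean of 20 CPM or more, and the top marker of a cell type. Genes outside this rule (Ifnb1, Ifng, Ifna6, Ifnlr1, Stat2, Ticam1, Ikbkb, Tbkbp1, Spib, Ciita, Oasl1, Rsad2, Pf4, Itga4, Cd163, F13a1, Ccr2, Tmem119, Sall1) were named after their values were seen. Same-numbered libraries did not pair. Some genes that these rules take are not reported here.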

Additional observations from a re-analysis of the deposited data

Results flagged for a closer look

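Of 38 groups of 5 values checked (CPM and family share of the members, CPM of Spi1 and the target, background density), 4 held a library far from the other 4, where chance alone gives about 1 in 20. Irf1 in control replicate 1 stood at 50.4 CPM, above the 4 other control libraries. Irf2 in labelled knockdown replicate 5 stood at 123.2 CPM, above the rest of its group. The share of Irf4 in the family's summed level was 0.569% in control replicate 5, the lowest of its group, and the share of Irf5 was 33.2% in the same library, also the lowest.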

How the results depend on the processing

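With TMM over all genes 5 IRF genes were called higher and 0 lower, and of 106 tested pathway genes 67 higher and 6 lower. In that fit 22.9% of all tested genes were called higher and 31.3% lower. Of the genes under a 5% background share 75.5% were called higher. With upper-quartile scaling 3 IRF genes and 27 pathway genes were called higher, and with library totals 1 and 15. With TMM on low-background genes 1 IRF gene was called higher, and 2 pathway genes higher and 10 lower. Background subtraction, background density as a covariate and lane 8 alone each left 0 IRF and 0 pathway calls in either direction. The covariate fit can hardly separate the groups from the density, whose ranges did not overlap between them. Its lost calls therefore do not decide whether the IRF genes differ. With 1 surrogate variable there were 0 IRF calls, 1 pathway gene higher and 0 lower. A filter of 5 CPM in 5 libraries gave 3 IRF genes higher, and 32 pathway genes higher and 3 lower. No filter gave 10 pathway genes lower. Over all genes, calls went from 4418 higher and 6033 lower to 1685 and 7195 (upper quartile), 759 and 7888 (totals), 312 and 8589 (low-background TMM), 2057 and 2239 (5 CPM filter), 2 and 28 (density covariate), 105 and 44 (surrogate variable) and 67 and 153 (lane 8). The cause was not tested, but lane 8 has fewer samples and the subtracted fit fewer genes.

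Some IRF signs turned. Irf1 was -0.047 (upper quartile), -0.106 (totals), -0.147 (low-background TMM), -0.139 (subtracted), -0.099 (covariate), -0.019 (5 CPM filter) and -0.053 (surrogate variable). Irf2 was -0.052 (totals), -0.092 (low-background TMM) and -0.088 (subtracted). Irf3 was -0.021 (upper quartile), -0.080 (totals), -0.12 (low-background TMM), -0.35 (covariate), -0.12 (lane 8) and -0.19 (surrogate variable). Irf9 was -0.0063 (low-background TMM), -0.0045 (subtracted) and -0.040 (covariate), and Spi1 was -0.026 and -0.050 in the first 2 of these. Family shares that passed went from 4 to 2 after subtraction. The share difference turned to 0.781 points for Irf8 and -0.315 for Irf7 in lane 8, and to 0.132 for Irf9 in lane 7.

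Leaving out each library gave 4 to 5 IRF genes higher and 0 lower, 62 to 78 pathway genes higher and 5 to 6 lower, 3 to 5 shares that passed, and share differences of -0.609 to 0.0563 points for Irf8. The replicate block left 5 IRF genes higher and 0 lower. The same-numbered deviations had correlations of -0.099, -0.217, 0.014, 0.153 and 0.163, so the numbers were not taken as pairs, and only replicate 4 correlated best with its own number. Paired sign flips of the shares cannot go below p = 0.0625 with 5 exact pairs. At 30 to 43 reads per library, Irf4 is the member most limited by depth.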
